A study of Mus musculus with 11 samples.

Results

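The SR proteins and hnRNPs of serum-starved mouse fibroblasts were described across 4 genotypes. They were taken as every gene of the count table whose symbol starts with Srsf and a digit, starts with Hnrnp, or is Tra2a or Tra2b, which gave 33 of 21684 genes. These were 8 SR protein genes (Srsf1 to Srsf7 and Srsf9), 5 SR-like genes (Srsf10, Srsf11, Srsf12, Tra2a and Tra2b) and 20 hnRNP genes. Of the 33, 32 passed the filter on low counts among 13332 tested genes, and Srsf12 had 0 counts in all 11 libraries, which allows at most 3 counts per library. The cells were NIH/3T3, an established mouse embryonic fibroblast line that forms primary cilia when serum is removed. The groups were unmodified cells (WT, 2 libraries) and cells with a knockout (KO) of Xap5 (mouse symbol Fam50a), Nono or Sox5 (3 libraries each), all kept for 24 h in medium without serum before RNA extraction. The study asked which transcripts depend on these 3 genes during primary ciliogenesis. The labels name no clones, so each KO was taken as 1 line, and they do not say that replicates came from separate cultures, so p-values measure the spread between these libraries, which may be technical.

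SR proteins carry RNA recognition motifs and a tail rich in arginine and serine, bind exonic enhancers and recruit the spliceosome, and their phosphorylation by Clk and Srpk kinases controls where in the nucleus they sit. The hnRNPs coat nascent transcripts and often repress exons, and many also act in export, translation or decay of mRNA. Genes of both families are known to hold poison exons, alternative exons with an early stop codon that send the transcript to nonsense-mediated decay and let the proteins limit their own and each other's output. Gene counts such as these add the productive and the poison-exon transcripts together.

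Depth ran from 30205878 to 43498383 counts per library. Fam50a averaged 63.8 CPM (depth-scaled counts) in WT and 7.75 in Xap5 KO, Nono 354 and 31.8 in Nono KO, and Sox5 47.8 and 13.5 in Sox5 KO. Sox5 was also low in the other knockouts, at 13.7 CPM in Xap5 KO and 7.78 in Nono KO. All 13 fibroblast markers were present, at summed levels of 25510 to 25660 CPM in WT, 20840 to 22190 in Xap5 KO, 52990 to 57970 in Nono KO and 23130 to 23600 in Sox5 KO. The 6 epithelial markers summed to at most 0.397 CPM with Krt8 and Krt18 at 0, and the endothelial, blood, muscle, neuron and adipocyte lists each to at most 12.25 CPM.

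The sequences just upstream of the start site are shown for 4 genes: Tra2b and Tra2a, a paralog pair that moved in opposite directions in every knockout (with the exceptions given below), and Srsf2 and Srsf10, the SR protein and SR-like genes with the largest rise and fall in Sox5 KO. Each is the 250 bases upstream of the RefSeq start in the GRCm38.p6 build, in the direction of the gene, at chr16:22266006-22266255 (minus strand), chr6:49264053-49264302 (minus), chr11:116853095-116853344 (minus) and chr4:135855821-135856070 (plus). Capitals mark matches, on either strand, to the motifs searched.
Tra2b: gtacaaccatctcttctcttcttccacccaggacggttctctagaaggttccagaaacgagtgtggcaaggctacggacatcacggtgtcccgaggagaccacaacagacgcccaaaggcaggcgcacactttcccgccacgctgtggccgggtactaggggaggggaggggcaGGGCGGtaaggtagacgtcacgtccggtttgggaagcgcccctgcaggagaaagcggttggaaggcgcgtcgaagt
Tra2a: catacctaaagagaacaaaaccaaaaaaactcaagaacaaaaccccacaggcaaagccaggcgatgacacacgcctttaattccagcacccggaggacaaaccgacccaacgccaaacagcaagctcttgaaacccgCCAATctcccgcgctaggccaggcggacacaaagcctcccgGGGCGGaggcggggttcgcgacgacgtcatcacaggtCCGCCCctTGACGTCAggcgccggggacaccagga
Srsf2: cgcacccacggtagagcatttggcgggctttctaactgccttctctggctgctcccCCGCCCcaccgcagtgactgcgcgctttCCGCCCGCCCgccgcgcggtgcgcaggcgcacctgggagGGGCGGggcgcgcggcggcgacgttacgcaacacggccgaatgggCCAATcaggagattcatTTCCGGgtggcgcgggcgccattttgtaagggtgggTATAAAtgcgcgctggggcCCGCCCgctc
Srsf10: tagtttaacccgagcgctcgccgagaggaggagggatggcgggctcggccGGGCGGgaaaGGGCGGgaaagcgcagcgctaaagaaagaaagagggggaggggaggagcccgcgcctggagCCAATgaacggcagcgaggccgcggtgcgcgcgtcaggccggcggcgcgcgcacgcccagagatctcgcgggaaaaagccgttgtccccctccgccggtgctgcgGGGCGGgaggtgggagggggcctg
The GC content of these windows was 60.8% for Tra2b, 58.8% for Tra2a, 69.6% for Srsf2 and 72.0% for Srsf10. None of the 4 windows held AACAAT, a core motif of SOX factors. Tra2a held 1 CRE (TGACGTCA), 1 CCAAT box (CCAAT) and 2 GC boxes (GGGCGG), whereas Tra2b held 1 GC box and no other motif searched. Srsf2 held 5 GC boxes, of which a neighbouring pair shares letters, with 1 CCAAT box, 1 ETS core (CCGGAA) and 1 TATA box (TATAAA). Srsf10 held 3 GC boxes and 1 CCAAT box.

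Over the 30 tested SR protein and hnRNP genes with a RefSeq window, 80.0% held a GC box against 33.0% of 27025 genes. The 27025 are all genes with a window, expressed here or not, whereas the 30 all passed the filter on low counts. The shares are therefore not those of a matched background. The CCAAT box stood in 53.3% of their windows against 34.5%, and the ETS core in 36.7% against 12.3%. The SOX core stood in 3.33% (Hnrnph1 alone) against 9.62%. The remaining motifs were at shares of 3.33% against 1.60% for the CRE, 6.67% against 6.04% for the E-box (CACGTG) and 10.0% against 13.0% for the TATA box, and no window of the set held the NRF1 site, against 0.777%. A match is a description of these letters, not evidence of binding.

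As a whole the families moved in different directions in the 3 knockouts, and by small amounts. In Sox5 KO 16 of 32 genes rose and 4 fell, in Nono KO 1 rose and 12 fell, and in Xap5 KO 5 rose and 6 fell (edgeR's quasi-likelihood test, Benjamini-Hochberg adjusted p under 0.05 over all tested genes). Of all tested genes, 60.9% passed in Sox5 KO (30.6% higher, 30.3% lower), 48.6% in Nono KO (23.5% higher, 25.1% lower) and 45.5% in Xap5 KO (23.2% higher, 22.3% lower). The share of SR protein and hnRNP genes that passed was thus near this background in Sox5 KO (62.5%) and below it in Nono KO (40.6%) and Xap5 KO (34.4%), while the split between rises and falls was uneven in Sox5 KO and Nono KO. Their median log2 fold change was 0.16 in Sox5 KO, -0.10 in Nono KO and -0.05 in Xap5 KO, against -0.01, -0.02 and 0.00 for all genes.

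These splits depended on the scale. With library totals alone in place of TMM factors, the median of all genes shifted by -0.16 in Nono KO and -0.11 in Sox5 KO, and 9 SR protein and hnRNP genes rose and 7 fell in Sox5 KO (25.1% and 36.0% of all genes). On that scale 1 rose and 20 fell in Nono KO (16.2% and 37.4% of all genes), and 4 rose and 9 fell in Xap5 KO (19.9% and 25.5% of all genes). After each chromosome's median shift was removed, 15 rose and 5 fell in Sox5 KO (29.4% and 28.6% of all genes), 1 rose and 3 fell in Nono KO (23.1% and 21.5%), and 2 rose and 6 fell in Xap5 KO (20.3% and 18.8%). With gene length and GC content modelled, 5 rose and 13 fell in Xap5 KO (24.5% and 22.9% of all genes), which also differed from the split above.

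The sizes were smaller than those over all tested genes, a background not matched for level. All tested genes reach down to the filter on low counts, whereas the tested genes of the set averaged 22.2 CPM (Hnrnph3) to 799 CPM (Hnrnpu). In the fit with all libraries and TMM factors, no gene of the set changed by at least 1.5-fold against WT in any knockout. Of all tested genes, 34.9% passed that size in Sox5 KO, 21.7% in Nono KO and 19.5% in Xap5 KO. Other scalings gave larger values for some genes. Hnrnpr with length and GC content modelled and Srsf5 relative to its chromosome passed that size in Sox5 KO, as given below. With library totals alone, Srsf10 in Sox5 KO (-0.63) passed it, as did Hnrnph2 (-0.67) and Tra2a (-0.63) in Nono KO. Hnrnph3 in Xap5 KO reached -0.61 at its lowest over the settings. The median absolute log2 fold change was 0.23 in Sox5 KO, 0.12 in Nono KO and 0.14 in Xap5 KO, against 0.50, 0.34 and 0.32 over all genes. The summed level of the 33 genes was 7456 to 7553 CPM in WT, 7267 to 7623 CPM in Xap5 KO, 6884 to 7276 CPM in Nono KO and 8030 to 8346 CPM in Sox5 KO. On this TMM scale all Sox5 KO libraries were thus above, and all Nono KO libraries below, both WT libraries. The TMM factors were 1.067 and 1.063 in WT and 0.9863, 0.977 and 0.9867 in Sox5 KO. With library totals alone the Sox5 KO sums did not all lie above WT. In a bulk sample, fewer cells with a transcript and less transcript per cell cannot be told apart.

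**Figure D1:**
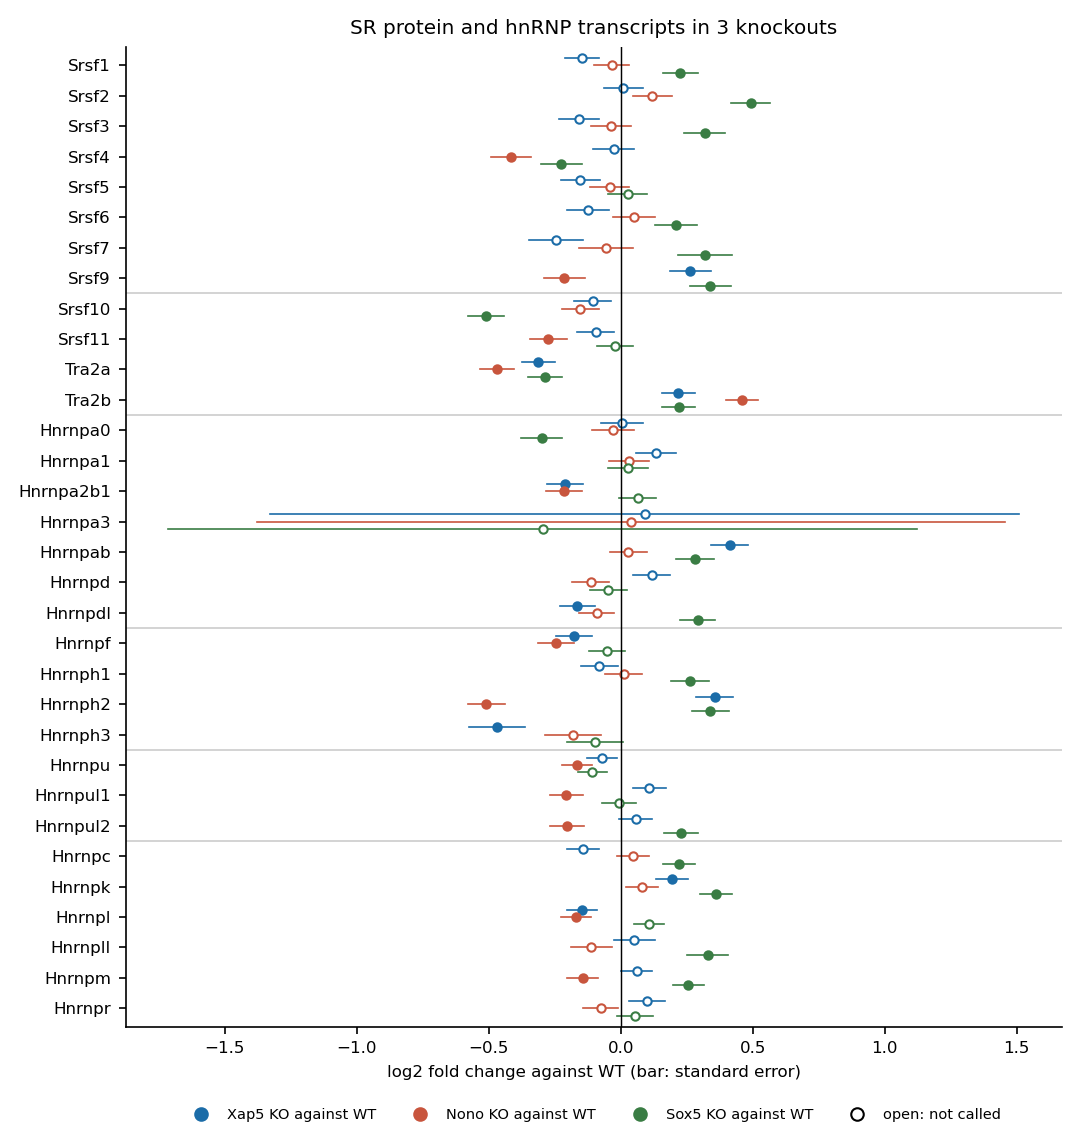
Log2 fold change against WT of the 32 tested SR protein and hnRNP genes in Xap5 KO (blue), Nono KO (red) and Sox5 KO (green); bars are standard errors, filled points have an adjusted p under 0.05, and grey lines separate families. Green points of the SR proteins sit mostly to the right (6 of 8 rose in Sox5 KO), red points mostly to the left (12 of 32 fell in Nono KO), and only Hnrnpa3 has a standard error above 1.

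The paralogs Tra2a and Tra2b, splicing activators that bind GAA-rich exonic enhancers and are known to control poison exons in their own family, went opposite ways in each knockout. Tra2b was 104 and 110.1 CPM in WT, 120.0, 130.1 and 124 CPM in Xap5 KO, 149, 153 and 140.2 CPM in Nono KO and 125, 124 and 125 CPM in Sox5 KO. Every knockout library lay above both WT libraries, and the Nono KO libraries lay highest. Its log2 fold change was 0.46 (adjusted p = 2.41e-06, SE 0.0612) in Nono KO, where the mean reached 137% of WT. In Xap5 KO it was 0.22 (adjusted p = 0.00586, SE 0.0609), and in Sox5 KO 0.22 (adjusted p = 0.00396, SE 0.0611). Tra2b was also higher in Nono KO than in Xap5 KO, with a log2 fold change of -0.24 for Xap5 KO against Nono KO (adjusted p = 0.000786), and higher than in Sox5 KO, with 0.24 (adjusted p = 0.000603) for Nono KO against Sox5 KO. After the chromosome shifts described further on were removed, it was not called higher in Nono KO than in either other knockout. Its change against WT was then 0.21 in Nono KO and 0.35 in Sox5 KO, so that Nono KO was no longer highest.

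Tra2a was 130.4 and 130.3 CPM in WT, 102, 104 and 109 CPM in Xap5 KO, 99.7, 92.9 and 89.8 CPM in Nono KO and 111, 106 and 103 CPM in Sox5 KO, so that every knockout library lay below both WT libraries. It fell by 0.47 on the log2 scale in Nono KO (adjusted p = 2.43e-06, SE 0.0627), to 72.2% of the WT mean. The log2 fold change was -0.31 (adjusted p = 0.000339, SE 0.0628) in Xap5 KO and -0.29 (adjusted p = 0.00047, SE 0.063) in Sox5 KO. The level was lower in Nono KO than in either other knockout, with 0.16 (adjusted p = 0.0252) for Xap5 KO against Nono KO and -0.18 (adjusted p = 0.00857) for Nono KO against Sox5 KO. Of all tested genes, 8.33% rose in all 3 knockouts and 7.61% fell in all 3, and Tra2b and Tra2a were the members of these classes here; the 3 comparisons share the WT libraries. Without WT replicate 1 the rise of Tra2b lost its call in Xap5 KO (adjusted p = 0.116) and in Sox5 KO (adjusted p = 0.0806), and with library totals alone as the scale it lost it in Sox5 KO (0.10, adjusted p = 0.156). The values that follow when each gene is set against its chromosome, given further on, ended the calls of Tra2a in Xap5 KO and Sox5 KO, where its sign turned, and of Tra2b in Xap5 KO.

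**Figure D2:**
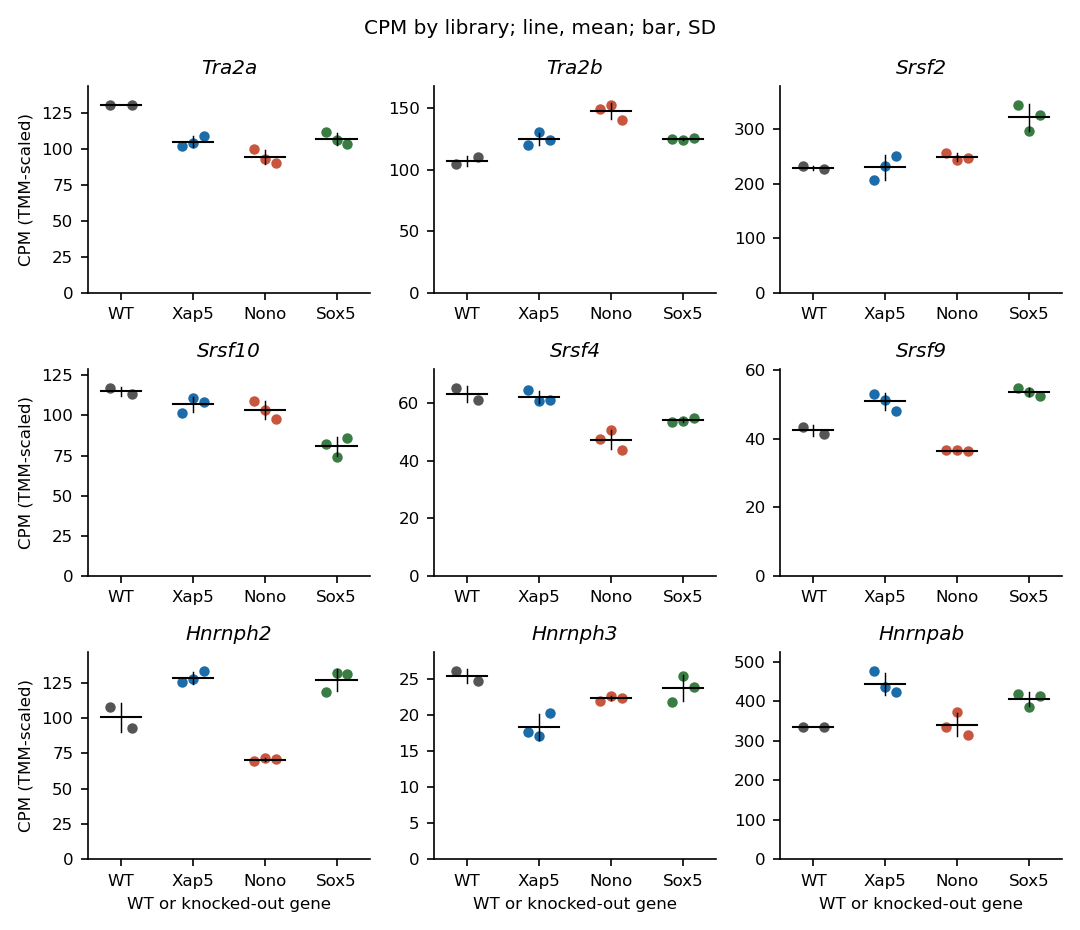
CPM in each of the 11 libraries for 9 SR protein and hnRNP genes, by WT or knocked-out gene; each point is a library, the line the group mean and the bar its SD (n = 2 for WT, 3 for each knockout), with axes from 0. Tra2a points lie below WT and Tra2b points above WT in all 3 knockouts, while Hnrnph2 and Srsf9 lie above WT in Xap5 KO and Sox5 KO and below it in Nono KO.

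Among the 8 SR protein genes, 6 rose in Sox5 KO (Srsf1, Srsf2, Srsf3, Srsf6, Srsf7 and Srsf9), Srsf4 fell, and Srsf5 did not pass the test. Their median log2 fold change was 0.27; with library totals alone as the scale, 3 of the 8 rose (Srsf2, Srsf3 and Srsf9) and Srsf4 fell. With gene length and GC content modelled, 4 rose (Srsf1, Srsf2, Srsf3 and Srsf6) and Srsf4 fell. After the chromosome shifts described further on were removed, 5 rose (Srsf2, Srsf3, Srsf5, Srsf7 and Srsf9), Srsf1 (0.08, adjusted p = 0.31) and Srsf6 (0.06, adjusted p = 0.536) lost their calls, and none fell. Srsf2, a marker protein of nuclear speckles, was 232 and 226 CPM in WT, 206, 233 and 252 CPM in Xap5 KO, 256, 243 and 246 CPM in Nono KO and 345, 296 and 325 CPM in Sox5 KO. The Sox5 KO libraries lay above all others, at 141% of the WT mean, while those of Xap5 KO lay on both sides of WT. Its log2 fold change in Sox5 KO was 0.49 (adjusted p = 7.84e-06, SE 0.075). With length and GC content modelled it was 0.19, adjusted p = 0.0408, and with the replicate number as a block added to that, 0.15 (adjusted p = 0.0855). Exons of Mfsd11 and Mettl23 overlap it on the opposite strand, so that its count is uncertain to the extent that counting ignored strand.

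Srsf7, which like Srsf3 also helps export mRNA, was 122 and 123 CPM in WT, 85.5, 107 and 117 CPM in Xap5 KO, 126, 107 and 120.0 CPM in Nono KO and 157, 146 and 155 CPM in Sox5 KO. It rose in Sox5 KO by 0.32 (adjusted p = 0.0144, SE 0.103), a call lost without WT replicate 1 (adjusted p = 0.0762), without WT replicate 2 (adjusted p = 0.0700), with library totals alone (adjusted p = 0.154) and with length and GC content modelled (0.15, adjusted p = 0.145). Srsf3 rose by 0.32 (adjusted p = 0.00116, SE 0.0765), from 199.6 and 189.8 CPM in WT to 245, 236 and 246 CPM. Srsf1, the founding SR splicing factor, rose by 0.23 (adjusted p = 0.0056, SE 0.0659), from 240.4 and 238 CPM to 273, 268 and 298 CPM. For Srsf6 the rise was 0.21 (adjusted p = 0.0288, SE 0.0798), with 246 and 254 CPM in WT and 305, 272 and 291 CPM in Sox5 KO. For none of these 4 genes did the groups overlap, and 37.8% of all tested genes were likewise higher in Sox5 KO without overlap.

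Srsf9, a repressor or activator depending on the exon, was 43.5 and 41.4 CPM in WT, 53.2, 51.5 and 48.2 CPM in Xap5 KO, 36.8, 36.6 and 36.4 CPM in Nono KO and 54.9, 53.6 and 52.6 CPM in Sox5 KO. It stood above WT in all Sox5 KO and Xap5 KO libraries and below WT in all Nono KO libraries. The log2 fold change was 0.34 (adjusted p = 0.00077, SE 0.0781) in Sox5 KO, 0.26 (adjusted p = 0.00872, SE 0.0777) in Xap5 KO and -0.21 (adjusted p = 0.0265, SE 0.0774) in Nono KO. When gene length and GC content were modelled, it turned to -0.09 in Sox5 KO (adjusted p = 0.325) and was 0.10 in Xap5 KO (adjusted p = 0.322). Leaving out WT replicate 1 or WT replicate 2 ended its call in Nono KO (adjusted p = 0.194 and 0.0695), and leaving out WT replicate 2 ended it in Xap5 KO (adjusted p = 0.113).

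Srsf4, an SR protein with a long arginine-serine tail, ran against the other SR genes in Sox5 KO. Its levels were 65.3 and 61.2 CPM in WT, 64.5, 60.7 and 61.0 CPM in Xap5 KO, 47.5, 50.7 and 43.9 CPM in Nono KO and 53.4, 54.0 and 55.0 CPM in Sox5 KO. The Nono KO and Sox5 KO libraries lay below both WT libraries, and Xap5 KO overlapped WT. The log2 fold change was -0.42 (adjusted p = 0.000122, SE 0.0768) in Nono KO, or 74.9% of the WT mean, and -0.23 (adjusted p = 0.0158, SE 0.0772) in Sox5 KO, a call lost without WT replicate 1 (adjusted p = 0.131). Srsf4 was also lower in Nono KO than in Sox5 KO, with -0.19 (adjusted p = 0.0215) for the direct comparison. Exons of Gm12992 overlap Srsf4 by 1532 bases on the opposite strand, so that its count is uncertain to the extent that counting ignored strand. Srsf5 was 279 and 281 CPM in WT, 235, 239 and 282 CPM in Xap5 KO, 272, 275 and 269 CPM in Nono KO and 261, 289 and 305 CPM in Sox5 KO, and its log2 fold change was 0.03 (adjusted p = 0.777) in Sox5 KO, -0.04 (adjusted p = 0.668) in Nono KO and -0.15 (adjusted p = 0.0957) in Xap5 KO.

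In Xap5 KO only Srsf9 of the 8 SR genes passed the test, and in Nono KO Srsf4 and Srsf9, both lower. The Xap5 KO count depended on the setting: 0 rose and 5 fell with length and GC content modelled (Srsf1, Srsf3, Srsf5, Srsf6 and Srsf7), 1 rose and 3 fell after the chromosome shifts were removed (Srsf3, Srsf6 and Srsf7 lower), and 1 rose and 5 fell without Xap5 KO replicate 3 (the same 5 genes as with length and GC content). The other 7 SR genes had log2 fold changes between -0.24 (Srsf7) and 0.01 (Srsf2) in Xap5 KO. The Xap5 KO libraries differed among themselves: replicate 1 was the lowest and replicate 3 the highest of the 3 for 6 of 8 SR genes, 2 of 4 tested SR-like genes and 5 of 20 hnRNP genes, against 20.4% of all tested genes. The summed level of the SR and SR-like genes was 1680, 1829 and 1977 CPM in those libraries against 1962 and 1957 CPM in WT. Without Xap5 KO replicate 3, 16 of the 32 genes passed in Xap5 KO (5 higher, 11 lower), Srsf7 at -0.35 (adjusted p = 0.00423) among them, and without WT replicate 1 only 6 passed (3 higher, 3 lower).

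**Figure D3:**
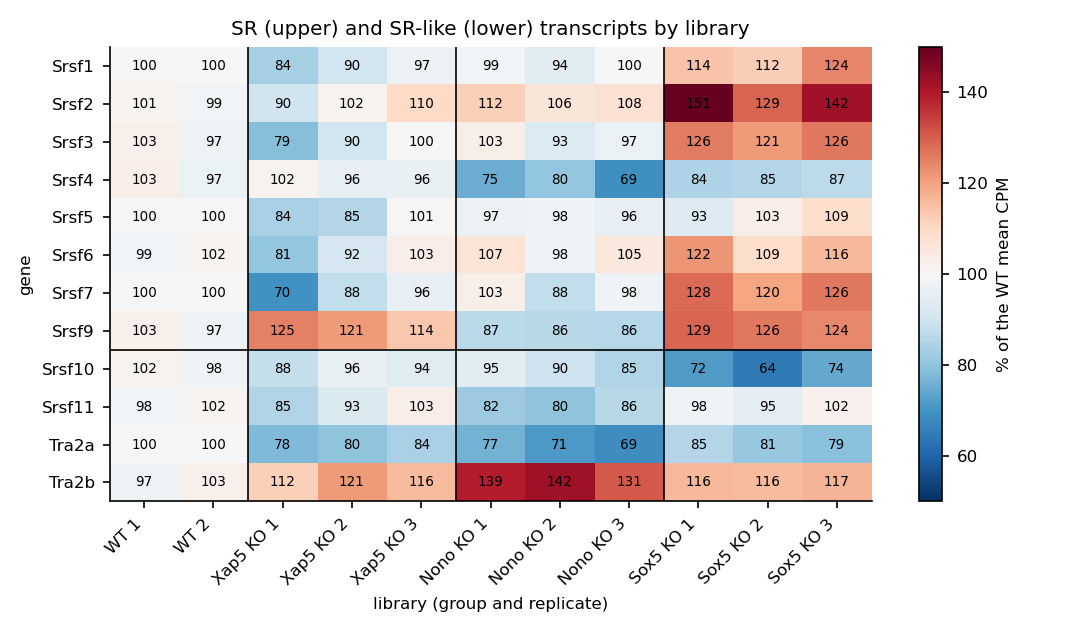
Level of each tested SR (upper 8) and SR-like (lower 4) gene in each of the 11 libraries, as a percentage of its mean CPM in WT; red is above and blue below WT. Srsf1, Srsf2, Srsf3, Srsf6, Srsf7 and Srsf9 are red in all 3 Sox5 KO libraries, Tra2a is blue and Tra2b red in every knockout library, and most SR genes are palest in replicate 3 of Xap5 KO.

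Of the other SR-like genes, Srsf10 and Srsf11 fell in 1 knockout each. Srsf10, a splicing repressor that is activated by dephosphorylation in heat shock, was 117 and 113 CPM in WT, 102, 111 and 108 CPM in Xap5 KO, 109, 103 and 98.0 CPM in Nono KO and 82.5, 74.2 and 85.7 CPM in Sox5 KO. The Sox5 KO libraries lay below every other library, at 70.2% of the WT mean. The log2 fold change in Sox5 KO was -0.51 (adjusted p = 1.92e-06, SE 0.07), the largest fall in the set there, and the differences from Xap5 KO and Nono KO also passed, at 0.40 (adjusted p = 1.12e-05) for Xap5 KO against Sox5 KO and 0.36 (adjusted p = 4.66e-05) for Nono KO against Sox5 KO. After the chromosome shifts described further on were removed, both of these differences lost their calls. The fall against WT was then -0.27 (adjusted p = 0.00248). Srsf11 was 183 and 188 CPM in WT, 158, 172 and 191 CPM in Xap5 KO, 152, 148 and 160.0 CPM in Nono KO and 182, 177 and 189 CPM in Sox5 KO. All Nono KO libraries were below WT, with a log2 fold change of -0.27 (adjusted p = 0.00233, SE 0.0692), whereas Xap5 KO and Sox5 KO overlapped WT.

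The hnRNP A, B and D group, 7 RNA-binding proteins that share a paired recognition motif and often silence exons, moved both ways in Xap5 KO and Sox5 KO. Of the 7, 1 rose and 2 fell in Xap5 KO, 1 fell in Nono KO, and 2 rose and 1 fell in Sox5 KO. Hnrnpab, which also binds promoters and transported mRNA, was 334 and 334 CPM in WT, 476, 435 and 422 CPM in Xap5 KO, 335, 372 and 314 CPM in Nono KO and 418, 385 and 414 CPM in Sox5 KO. All Xap5 KO and Sox5 KO libraries lay above WT, and the Nono KO libraries lay on both sides of it. The log2 fold change was 0.41 (adjusted p = 6.23e-05, SE 0.0707) in Xap5 KO, or 133% of the WT mean and the largest rise in the set there, and 0.28 (adjusted p = 0.00165, SE 0.0705) in Sox5 KO. The Sox5 KO call was lost with gene length and GC content modelled, at 0.08 (adjusted p = 0.338), and after the chromosome shift was removed, at 0.14, adjusted p = 0.108. Exons of Phykpl overlap Hnrnpab on the opposite strand.

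Hnrnpa2b1, which sorts RNAs for transport as well as splicing them, fell in Xap5 KO and Nono KO and not in Sox5 KO. It was 571 and 601 CPM in WT, 489.5, 502 and 525 CPM in Xap5 KO and 526, 512 and 476 CPM in Nono KO, with log2 fold changes of -0.21 (adjusted p = 0.0144) and -0.21 (adjusted p = 0.0123). After the chromosome shift was removed both calls were lost, at 0.06, adjusted p = 0.538 and 0.00 (adjusted p = 0.998), and it rose in Sox5 KO, at 0.42, adjusted p = 1.93e-05. Hnrnpa0, a binder of AU-rich mRNAs, fell in Sox5 KO from 249 and 232 CPM to 208, 172 and 207 CPM, a log2 fold change of -0.30 (adjusted p = 0.0026, SE 0.0787). In Xap5 KO it did not pass (0.00) but fell relative to its chromosome, at -0.30, adjusted p = 0.0031. Hnrnpdl fell in Xap5 KO, at -0.16 (adjusted p = 0.0487), and rose in Sox5 KO, at 0.29 (adjusted p = 0.000785). Hnrnpd, which promotes decay of AU-rich mRNAs, did not pass in any knockout, at -0.05 in Sox5 KO, 0.12 in Xap5 KO and -0.11 in Nono KO. With length and GC content modelled, Hnrnpd rose in Sox5 KO, at 0.41, adjusted p = 4.50e-05, and with library totals alone it fell in Sox5 KO, at -0.16, adjusted p = 0.0443, and Nono KO, at -0.28, adjusted p = 0.00169. Hnrnpa1, the best studied exon silencer of the group, was 358 and 368 CPM in WT, 377, 401 and 416 CPM in Xap5 KO, 398, 368 and 347 CPM in Nono KO and 326, 396 and 387 CPM in Sox5 KO. The Nono KO and Sox5 KO libraries overlapped WT, and no adjusted p was under 0.166.

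Hnrnpa3 varied between libraries of the same genotype more than any other gene of the set. It was 18.3 and 109 CPM in WT, 92.0, 8.52 and 104 CPM in Xap5 KO, 111, 63.1 and 21.6 CPM in Nono KO and 127, 15.5 and 12.6 CPM in Sox5 KO. The highest library of a group exceeded the lowest 5.97-fold in WT, 5.16-fold in Nono KO, 10.1-fold in Sox5 KO and 12.1-fold in Xap5 KO, and the groups overlapped. The SD within groups was 1.69 on the log2 scale, the third highest of 7652 genes above a mean of 20 CPM, whose median was 0.0869. The standard error of its log2 fold changes was 1.42 in each comparison with WT, so that changes of the size seen in the other genes were not detectable for it. Gapdh, an unrelated gene of which many near-identical processed copies are known, as they are for Hnrnpa1 and Hnrnpa3, also varied, from 9.01 to 86.0 CPM. The part that reads shared with such copies play in the counts was not tested.

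**Figure D4:**
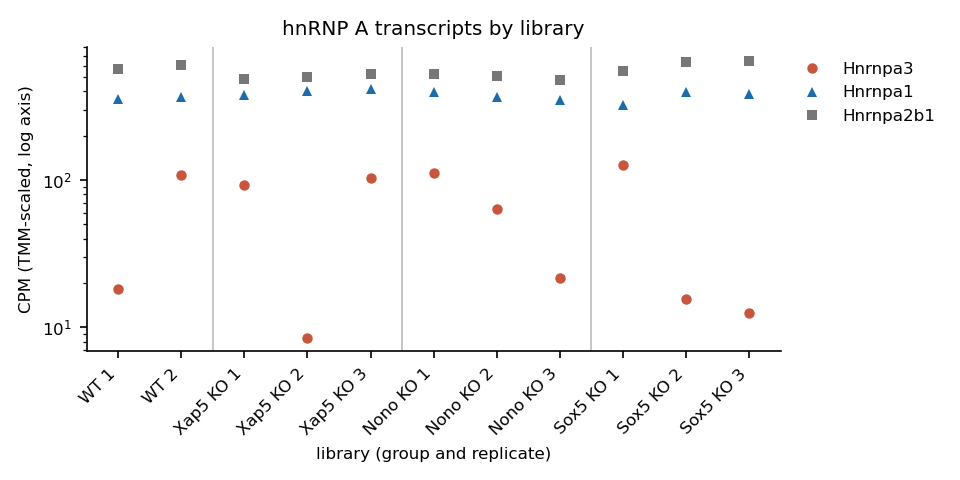
CPM on a log axis of Hnrnpa3 (red circles), Hnrnpa1 (blue triangles) and Hnrnpa2b1 (grey squares) in the 11 libraries; grey lines separate the groups. Hnrnpa3 jumps between 8.52 and 127 CPM within groups, whereas Hnrnpa1 stays between 326 and 416 CPM in all libraries.

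The hnRNP F and H genes, which bind runs of G, held the widest differences between knockouts, those of Hnrnph2, which were smaller after the shift of chromosome X was removed. Hnrnph2 was 108 and 93.2 CPM in WT, 125, 128 and 133 CPM in Xap5 KO, 69.4, 71.9 and 70.8 CPM in Nono KO and 118, 132 and 131 CPM in Sox5 KO. The Nono KO libraries lay below every other library, and those of Xap5 KO and Sox5 KO lay above both WT libraries. The log2 fold change was -0.51 (adjusted p = 3.08e-06, SE 0.0693) in Nono KO, or 70.2% of the WT mean, 0.36 (adjusted p = 0.000274, SE 0.0699) in Xap5 KO and 0.34 (adjusted p = 0.000271, SE 0.0701) in Sox5 KO. The difference for Xap5 KO against Nono KO was 0.87, and 0.12, adjusted p = 0.116 with the chromosome shift removed, when no hnRNP F or H gene passed in that comparison. For Nono KO against Sox5 KO it was -0.85, and -0.34, adjusted p = 9.02e-05 with the shift removed. Its close paralog Hnrnph1 rose in Sox5 KO alone, by 0.26 (adjusted p = 0.00328, SE 0.0712), from 553 and 527 CPM in WT to 625, 622 and 692 CPM, a call lost with the chromosome shift removed (0.12, adjusted p = 0.168) and with library totals alone (0.15, adjusted p = 0.105). Reads that fit both paralogs could be split between them by the authors' counting.

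Hnrnph3 was 26.1 and 24.7 CPM in WT, 17.6, 17.1 and 20.4 CPM in Xap5 KO, 22.1, 22.7 and 22.5 CPM in Nono KO and 21.9, 25.5 and 23.9 CPM in Sox5 KO. It fell in Xap5 KO, at -0.47 (adjusted p = 0.00103, SE 0.106), the largest fall in the set there, and its Xap5 KO libraries lay below all others. Exons of Rufy2 overlap it on the opposite strand. Hnrnpf was 466 and 424 CPM in WT, 402, 421 and 359 CPM in Xap5 KO, 396, 372 and 358 CPM in Nono KO and 441, 421 and 425 CPM in Sox5 KO. Its log2 fold change was -0.25 (adjusted p = 0.00492) in Nono KO and -0.18 (adjusted p = 0.0401) in Xap5 KO, and neither call held without WT replicate 1 (adjusted p = 0.139 and 0.335). The Xap5 KO call was also lost without Xap5 KO replicate 3 (adjusted p = 0.139). With the chromosome shift removed both calls of Hnrnpf were lost, at -0.03 (adjusted p = 0.75) in Nono KO and 0.10 (adjusted p = 0.302) in Xap5 KO. It then rose in Sox5 KO, at 0.30 (adjusted p = 0.000901).

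All 3 hnRNP U genes, which encode a nuclear scaffold protein and its relatives, fell in Nono KO, and none passed in Xap5 KO; after the chromosome shift described further on was removed, none of the 3 passed in Nono KO. Hnrnpu was 836 and 869 CPM in WT and 771, 757 and 751 CPM in Nono KO, a log2 fold change of -0.17 (adjusted p = 0.0181, SE 0.0562). Hnrnpul1 was 192 and 201 CPM and 171, 166 and 173 CPM, with -0.21 (adjusted p = 0.00905, SE 0.0626). For Hnrnpul2 the values were 219 and 212 CPM and 187, 191 and 182 CPM, with -0.20 (adjusted p = 0.0112, SE 0.0634). The Nono KO libraries lay below WT for each of the 3, as for 34.2% of all tested genes. Hnrnpul2 rose in Sox5 KO, to 229, 264 and 264 CPM, by 0.23 (adjusted p = 0.0041, SE 0.064). This turned to a fall after the chromosome shift was removed, at -0.17, adjusted p = 0.0325, and the call was lost with library totals alone (0.11, adjusted p = 0.123). Hnrnpu did not pass in Sox5 KO (-0.11), where it fell relative to its chromosome, at -0.17, adjusted p = 0.0148, and with library totals alone, at -0.22, adjusted p = 0.00142, and rose with length and GC content modelled, at 0.41, adjusted p = 5.00e-07. Exons of Cox20 overlap Hnrnpu on the opposite strand, and exons of another gene overlap Hnrnpul2 on the same strand by 360 bases, so that counting by strand could not separate them.

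Of the other 6 hnRNP genes, 4 rose in Sox5 KO (Hnrnpc, Hnrnpk, Hnrnpll and Hnrnpm), and Hnrnpl and Hnrnpr did not pass. Hnrnpk, a binder of C-rich RNA and DNA, was 416 and 456 CPM in WT, 510.3, 501 and 482 CPM in Xap5 KO, 466, 481 and 435 CPM in Nono KO and 545, 569 and 563 CPM in Sox5 KO. All Sox5 KO and Xap5 KO libraries lay above WT. Its log2 fold change was 0.36 (adjusted p = 2.82e-05, SE 0.0608) in Sox5 KO and 0.19 (adjusted p = 0.0131, SE 0.0605) in Xap5 KO, and the latter was lost without WT replicate 1 (0.12, adjusted p = 0.279) and without Xap5 KO replicate 1 (0.16, adjusted p = 0.0529). With the chromosome shift removed the Xap5 KO value of Hnrnpk turned to -0.12 (adjusted p = 0.142). Exons of Rmi1 overlap Hnrnpk on the opposite strand. Hnrnpll, known for exon choice in lymphocytes, was 81.8 and 74.3 CPM in WT, 74.9, 84.0 and 83.4 CPM in Xap5 KO, 66.5, 71.6 and 78.7 CPM in Nono KO and 98.4, 94.7 and 101 CPM in Sox5 KO, with 0.33 (adjusted p = 0.00105, SE 0.0783) in Sox5 KO, whose libraries lay above all others.

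Hnrnpm, which binds GU-rich RNA, rose in Sox5 KO, at 0.26 (adjusted p = 0.00081, SE 0.0592), and fell in Nono KO, at -0.15 (adjusted p = 0.0463, SE 0.0587). It was 248 and 257 CPM in WT, 239, 232 and 213 CPM in Nono KO and 293, 299.6 and 311 CPM in Sox5 KO. Exons of March2 overlap it by 1169 bases on the same strand, so that its count is uncertain whether or not strand was used, and the Nono KO call was lost with the chromosome shift removed (adjusted p = 0.0509). Hnrnpc, a binder of U tracts, rose in Sox5 KO by 0.22 (adjusted p = 0.00382, SE 0.0608), from 216 and 198 CPM to 242, 249.6 and 232 CPM. That call was lost with the chromosome shift removed (0.01, adjusted p = 0.866), with length and GC content modelled (0.13, adjusted p = 0.082) and with library totals alone (0.10, adjusted p = 0.136). Hnrnpl, which binds CA repeats, fell in both Nono KO, at -0.17 (adjusted p = 0.0171), and Xap5 KO, at -0.15 (adjusted p = 0.0378). With the chromosome shift removed its Nono KO call was lost, at 0.009 (adjusted p = 0.918). Hnrnpr did not pass in any knockout, with log2 fold changes of 0.05 in Sox5 KO, 0.10 in Xap5 KO and -0.08 in Nono KO. In Sox5 KO it rose relative to its chromosome, at 0.29, adjusted p = 0.00078, and far more with length and GC content modelled, at 1.07, adjusted p = 5.75e-11. With the latter it also passed in Xap5 KO, at 0.19, adjusted p = 0.0287. The length modelled for Hnrnpr was 21452 bases, the longest of the set.

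Direct comparisons between knockouts showed where 1 knockout stood apart from WT and both others; these comparisons share libraries with each other and with those against WT. Sox5 KO stood apart upwards in 11 of 32 genes (Hnrnpc, Hnrnpdl, Hnrnph1, Hnrnpk, Hnrnpll, Hnrnpm, Hnrnpul2, Srsf1, Srsf2, Srsf3 and Srsf7), against 16.8% of all tested genes, and downwards in Hnrnpa0 and Srsf10, against 16.4%. Nono KO stood apart downwards in 8 genes (Hnrnph2, Hnrnpm, Hnrnpul1, Hnrnpul2, Srsf4, Srsf9, Srsf11 and Tra2a), against 9.39%, and upwards in Tra2b, against 8.71%. Xap5 KO stood apart only in Hnrnph3, which was lower (6.68% of all genes), and none was higher (6.65%). Several of these genes lost their calls against WT after the chromosome shifts described below were removed. In Nono KO these were Hnrnph2, Hnrnpm, Hnrnpul1, Hnrnpul2 and Srsf9, and in Xap5 KO Hnrnph3. In Sox5 KO Hnrnpc, Hnrnph1 and Srsf1 lost theirs, and Hnrnpul2 turned to a fall. Calls between knockouts were lost as well. Hnrnpa0 was then 0.13 (adjusted p = 0.114) for Nono KO against Sox5 KO and -0.06 (adjusted p = 0.512) for Xap5 KO against Sox5 KO. Srsf10 was no longer called lower in Sox5 KO than in either other knockout. Tra2b was no longer called higher in Nono KO than in either other knockout. Between knockouts, 24 of 32 genes passed for Nono KO against Sox5 KO (3 higher, 21 lower; 63.5% of all genes, 30.9% higher and 32.6% lower), 20 for Xap5 KO against Sox5 KO (4 higher, 16 lower; 61.6%, 31.1% higher and 30.4% lower) and 15 for Xap5 KO against Nono KO (11 higher, 4 lower; 53.0%, 27.1% higher and 25.9% lower). With library totals alone, 18 rose and 0 fell for Xap5 KO against Nono KO, where the median of all genes shifted by 0.11 (35.4% and 19.7% of all genes), and 7 rose and 13 fell for Xap5 KO against Sox5 KO (34.4% and 26.9%). After the chromosome shifts described next were removed, 6 rose and 6 fell for Xap5 KO against Nono KO (23.0% and 23.8% of all genes). Without Xap5 KO replicate 3, 8 rose and 11 fell in that comparison, so that falls then outnumbered rises. With all libraries and TMM factors, Hnrnph2 was the only gene of the set past 1.5-fold in any of the 6 comparisons. Of all genes, 22.2% were past it for Xap5 KO against Nono KO, 31.5% for Xap5 KO against Sox5 KO and 34.6% for Nono KO against Sox5 KO.

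Levels per length could be compared between genes. Per kb of exon, the highest mean levels over the 11 libraries were those of Hnrnpab (138.5 CPM per kb), Hnrnpf (133.8) and Hnrnpa1 (119.4). The order of Hnrnpf and Hnrnpab differed between groups: Hnrnpf stood at 146 and Hnrnpab at 120.0 CPM per kb in WT, and at 123 and 122 in Nono KO, whereas Hnrnpab was higher in Xap5 KO (159.7 against 129) and Sox5 KO (146 against 141). The lowest of the tested genes were Hnrnpll (7.08 CPM per kb), Hnrnph3 (7.06) and Hnrnpr (4.70). With the longest annotated transcript as the length, Hnrnpf (169.8) stood above Hnrnpab (162.6), Hnrnpa1 was at 120.7, and Hnrnpll at 17.8 CPM per kb, while Hnrnph3 (10.1) and Hnrnpr (4.86) stayed low. For Hnrnpr the annotated lengths were 22199 bases of exon and 21452 bases for the longest transcript, each the longest of the set. They are nearly the same, so the longest transcript gives no separate check. Its mean not divided by length was 104.2 CPM, above Hnrnpll (82.7) and Hnrnph3 (22.2).

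In each knockout the median log2 fold change differed between chromosomes, for example -0.46 over 643 genes of chromosome 10 in Xap5 KO, -0.33 over 438 genes of chromosome X in Nono KO and -0.75 over 447 genes of chromosome 12 in Sox5 KO. Of the genes of the set that passed, 9 of 11 in Xap5 KO, 10 of 13 in Nono KO and 16 of 20 in Sox5 KO had the sign of their chromosome's median, against 69.9%, 65.4% and 66.5% of all genes that passed. Of all 32, passed or not, 23, 22 and 22 had it, against 62.3%, 59.7% and 61.2% of all tested genes. Hnrnph3 in Xap5 KO (-0.47) lay at the median of chromosome 10, above 48.7% of its genes. Hnrnph2 in Xap5 KO (0.36) lay at that of chromosome X (0.36), above 49.8% of its genes. Hnrnpa2b1, Hnrnpf and Tra2a all lie on chromosome 6, whose median was -0.35 in Sox5 KO, -0.25 in Xap5 KO and -0.19 in Nono KO.

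When each gene was tested after removing its chromosome's shift, fewer genes passed in Nono KO and partly other genes in the rest. In Nono KO 4 passed (44.6% of all genes), all among the 13 before, namely Srsf4, Srsf11, Tra2a and Tra2b. In Xap5 KO 8 passed (39.0% of all genes), of which 4 had passed before, and in Sox5 KO 20 passed (57.9% of all genes), of which 13 had. Tra2a was then -0.26 in Nono KO (adjusted p = 0.00175), -0.04 in Xap5 KO (adjusted p = 0.634) and 0.07 in Sox5 KO (adjusted p = 0.378). Tra2b was 0.21 in Nono KO (adjusted p = 0.00694), 0.11 in Xap5 KO (adjusted p = 0.169) and 0.35 in Sox5 KO (adjusted p = 3.41e-05). Hnrnph3 in Xap5 KO was 0.01, and Hnrnph2 was -0.12 in Nono KO (adjusted p = 0.161). Chromosome copy number was not measured, and its part in these values was not tested.

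Srsf5 gave the widest gap between a gene of the set and its chromosome. In Sox5 KO 328 of the 447 tested genes of chromosome 12 fell and 19 rose, whereas Srsf5 stood at 0.03, above 88.1% of them. Relative to the chromosome its value was 0.80 (adjusted p = 6.33e-09). Its CPM in the Sox5 KO libraries, given above, lay on both sides of the WT values.

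**Figure D5:**
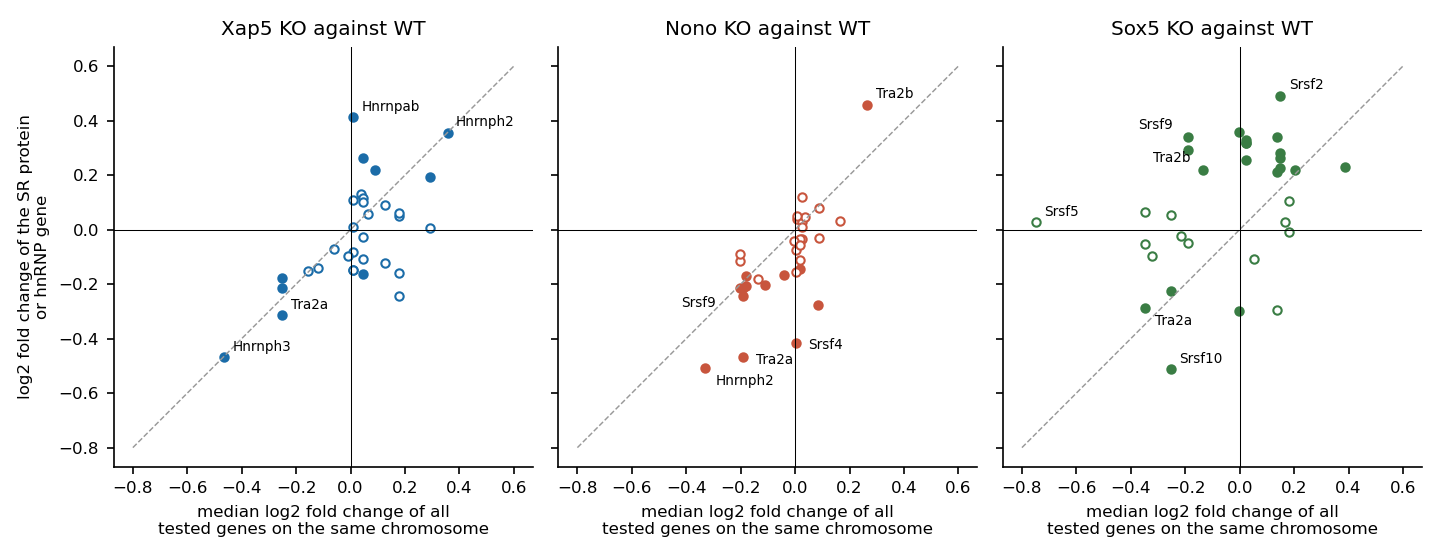
Log2 fold change of each of the 32 SR protein and hnRNP genes (vertical) against the median log2 fold change of all tested genes on its chromosome (horizontal), in each knockout against WT; filled points have an adjusted p under 0.05 and the dashed line marks equal values. Hnrnph3 and Hnrnph2 lie on the line in Xap5 KO, while Srsf5 lies far above it in Sox5 KO.

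Other genes of the splicing machinery, from lists written from general knowledge, went their own ways. Values for these and the later lists come from the fit with TMM factors, without chromosome, length or GC offsets. Beside each list, 60.9% of all tested genes passed in Sox5 KO (30.6% higher, 30.3% lower). In Nono KO 48.6% passed (23.5% higher, 25.1% lower) and in Xap5 KO 45.5% (23.2% higher, 22.3% lower). The medians of all genes were -0.01, -0.02 and 0.00 in these knockouts. Of 26 SR-related proteins, 6 rose and 15 fell in Sox5 KO (median -0.29), 0 rose and 13 fell in Nono KO (median -0.23), and 1 rose and 7 fell in Xap5 KO (median -0.04). In Sox5 KO, where most SR genes rose, the speckle scaffold genes Son and Srrm2 fell. Son was 214, 238 and 253 CPM against 429 and 447 CPM in WT, a log2 fold change of -0.90 (adjusted p = 1.85e-10, SE 0.0662), and Srrm2 was 546, 638 and 651 CPM against 995 and 1008 CPM in WT, with -0.71 (adjusted p = 1.25e-08, SE 0.0688). In Nono KO the largest falls were those of Luc7l2, at -0.48 (adjusted p = 3.72e-06, SE 0.0667), and U2af2, a subunit of the factor that reads the polypyrimidine tract, at -0.46 (adjusted p = 2.30e-06, SE 0.0606). In Xap5 KO Rnps1 rose by 0.53 (adjusted p = 0.00245, SE 0.124) and Rsrp1 fell, at -0.45 (adjusted p = 0.0194, SE 0.133).

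Of 14 tested kinases, phosphatase and import factors that act on SR proteins and hnRNPs, 5 rose and 5 fell in Sox5 KO, 2 and 6 in Nono KO, and 3 and 5 in Xap5 KO, with medians of 0.10, -0.14 and -0.03. The import receptor Tnpo1, which carries hnRNPs into the nucleus, was 133, 127 and 144 CPM against 262 and 243 CPM in WT in Sox5 KO, with -0.91 (adjusted p = 5.45e-11, SE 0.0618). The phosphatase subunit Ppp1ca rose there by 0.88 (adjusted p = 3.90e-10, SE 0.0678). Among kinases of SR proteins, Srpk2 fell in Nono KO at -0.55 (adjusted p = 5.83e-07, SE 0.0659) and Clk4 at -0.45 (adjusted p = 0.00106, SE 0.103), while in Xap5 KO Clk1 fell at -0.38 (adjusted p = 5.20e-05, SE 0.0635) and Clk3 rose by 0.45 (adjusted p = 0.000347, SE 0.091).

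Of 20 hnRNP proteins with other symbols, 7 rose and 5 fell in Xap5 KO, 5 and 9 in Nono KO, and 7 and 6 in Sox5 KO, with medians of 0.06, -0.18 and 0.00. The cold-induced RNA-binding gene Cirbp fell in Xap5 KO, at -0.85 (adjusted p = 0.00119, SE 0.179), and in Sox5 KO, at -0.89 (adjusted p = 0.000527, SE 0.18). Pcbp3, a binder of poly(C), was 18.4, 14.2 and 16.3 CPM against 34.8 and 30.5 CPM in WT in Xap5 KO (a log2 fold change of -1.003, adjusted p = 1.61e-06, SE 0.128), and the polypyrimidine tract binder Ptbp3 fell in Sox5 KO at -0.89 (adjusted p = 8.04e-10, SE 0.0719). Syncrip, a paralog of Hnrnpr, rose in Nono KO by 0.53 (adjusted p = 4.71e-07, SE 0.0633), and Taf15 by 0.68 (adjusted p = 0.0103, SE 0.174).

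Of 19 tested other regulators of alternative splicing, out of 27 listed, 4 rose and 6 fell in Xap5 KO, 6 and 4 in Nono KO, and 5 and 6 in Sox5 KO, with medians of -0.13, -0.12 and -0.06. Nova1, a regulator best known from neurons, was at 6.10 and 3.75 CPM in WT and rose in each knockout, by 1.90 (adjusted p = 5.52e-09, SE 0.173) in Sox5 KO, 2.01 (adjusted p = 5.73e-09, SE 0.173) in Xap5 KO and 1.87 (adjusted p = 1.11e-08, SE 0.173) in Nono KO. Pspc1, a paraspeckle protein and paralog of Nono, rose in Nono KO by 1.30 (adjusted p = 1.31e-08, SE 0.121), at 51.6, 50.8 and 54.5 CPM against 20.4 and 22.1 CPM in WT. Tia1 fell in Xap5 KO at -0.65 (adjusted p = 3.17e-05, SE 0.0969). Mbnl3 had 2 and 0 counts in WT and 79, 84 and 67 counts in Sox5 KO.

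Of 18 nonsense-mediated decay factors, which remove poison-exon transcripts, 1 rose and 5 fell in Xap5 KO, 0 rose and 6 fell in Nono KO, and 1 rose and 6 fell in Sox5 KO. Their medians were -0.07, -0.03 and -0.06, and 45.5%, 48.6% and 60.9% of all tested genes passed in these knockouts. The kinase Smg1 fell in Sox5 KO at -0.92 (adjusted p = 1.29e-10, SE 0.0663) and Nbas at -1.41 (adjusted p = 1.59e-12, SE 0.0773). In Nono KO Upf3b, which links decay to exon junctions, fell at -0.91 (adjusted p = 1.26e-07, SE 0.0985) and Smg9 at -0.46 (adjusted p = 0.00287, SE 0.119). In Xap5 KO Smg5 rose by 0.50 (adjusted p = 7.69e-06, SE 0.0717) and Magohb fell at -0.62 (adjusted p = 0.0233, SE 0.214).

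Proliferation genes differed between the groups as well. Of 18, 13 rose and 1 fell in Xap5 KO, 10 and 2 in Sox5 KO, and 7 and 3 in Nono KO, with medians of 1.12, 0.48 and 0.36. Their summed level was 690 to 774 CPM in WT, 1109 to 1246 CPM in Xap5 KO, 628 to 891 CPM in Nono KO and 849 to 897 CPM in Sox5 KO. Examples were Tyms and Cdc6 in Xap5 KO, at 1.51 (adjusted p = 1.12e-08, SE 0.137) and 1.49 (adjusted p = 0.000457, SE 0.265), Birc5 and Plk1 in Sox5 KO, at 1.25 (adjusted p = 2.82e-06, SE 0.176) and 1.17 (adjusted p = 2.81e-06, SE 0.165), and Ccnb1 and Ccna2 in Nono KO, at 0.99 (adjusted p = 4.96e-06, SE 0.14) and 0.78 (adjusted p = 0.0241, SE 0.237). The part of proliferation in the SR protein and hnRNP values was not tested.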

How the data were processed

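RNA-seq libraries of NIH/3T3 cells were analysed from a table of gene counts. The values the authors deposited are whole numbers and were taken as rounded estimated counts per gene, not normalized, since the value 2 occurs 3302 times and the value 1 only 857 times. HISAT2 2.1.0, StringTie 1.3.3b, DESeq2 1.12.4 and the GRCm39/mm39 build are named, without roles, in the submitters' processing notes; annotation and strand handling are not given in the sources used here. Libraries were grouped by the genotype in the labels.

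All comparisons came from a single edgeR 4.0.16 quasi-likelihood fit (R 4.3.3) of the 11 libraries, with TMM factors, a filter at 10 counts (15 in total), robust dispersions, no replicate block and Benjamini-Hochberg adjustment over 13332 genes. "Rose", "fell" and "passed" mean an adjusted p under 0.05. CPM uses TMM-scaled library sizes. With a common biological coefficient of variation of 10.6%, replicates rather than depth set the precision of most genes. Floors of 3 counts cover counting error only. Of 21684 IDs, 21540 matched GENCODE M21 (GRCm38), used for chromosome, length, GC content and exon overlaps and not for coordinates. Promoter windows came from RefSeq. In data simulated for Xap5 KO against WT, 18% of 50 changes of 1.2-fold and 76% of 50 changes of 1.5-fold passed. At 2-fold 100% and at 3-fold 96% passed, as did 0.039% of unchanged genes. In the simulation 13132 of 13332 genes were unchanged, whereas 45.5% of all genes passed in Xap5 KO. The Benjamini-Hochberg adjustment therefore asked for smaller p-values in the simulation, and these shares do not measure recovery or false calls in the fit used here. A gene that did not pass can still have changed by a small amount.

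Named genes were those of the set with the 6 largest changes per knockout that passed without overlap, those that passed alike in all knockouts, up to 5 per knockout that differed from WT and both other knockouts, the 3 highest and 3 lowest per kb, and those under the filter; other genes of the set were added to account for all. Of related lists the 2 largest changes per knockout were named. The genes of the set and the lists were chosen with earlier results of these data known.

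Alternatives were DESeq2 1.42.0 and its size factors, library totals, other count filters, only the 2 groups compared, a replicate block, chromosome offsets (the chromosome median removed), length and GC offsets (mgcv 1.9.3), stricter thresholds and each library left out. Replicate numbers did not pair libraries.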

Additional observations from a re-analysis of the deposited data

Results flagged for a closer look

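Of the set, 5 genes were called on opposite sides of WT in different knockouts. They were chosen by those calls, so the direct comparison of the same libraries is given as a description. Hnrnph2 differed by 0.87 for Xap5 KO against Nono KO (SE 0.0628) and by -0.85 for Nono KO against Sox5 KO (SE 0.0630), with all 3 Nono KO libraries below WT and all libraries of the other knockouts above it; after the chromosome shifts were removed these were 0.12 (SE 0.0629) and -0.34 (SE 0.0631). Srsf9 differed by 0.48 for Xap5 KO against Nono KO (SE 0.0695) and by -0.55 for Nono KO against Sox5 KO (SE 0.0698), and by 0.22 and -0.53 after the shifts were removed; with length and GC content modelled the latter was -0.28. Hnrnpdl, lower in Xap5 KO and higher in Sox5 KO, differed by -0.46 for Xap5 KO against Sox5 KO (SE 0.0598), and by -0.70 without the shifts. Hnrnpm and Hnrnpul2, lower in Nono KO and higher in Sox5 KO, differed for Nono KO against Sox5 KO by -0.40 (SE 0.0528) and -0.43 (SE 0.0571); without the shifts Hnrnpm stood at -0.36 and Hnrnpul2 at 0.06, where its sign turned.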

How the results depend on the processing

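At 1.5-fold in the fit with all libraries and TMM factors, 0 passed against WT in each knockout and 0 for Xap5 KO against Sox5 KO. There was 1 for Xap5 KO against Nono KO and 1 for Nono KO against Sox5 KO. At an adjusted p under 0.01, 6 passed in Xap5 KO and 7 in Nono KO. Against 11 in Xap5 KO, 18 passed with length and GC offsets and 19 with these and the replicate block. Against 13 in Nono KO, 21 passed with library totals and 4 with chromosome offsets. Leaving out 1 library at a time gave 6 to 16 in Xap5 KO, 7 to 14 in Nono KO, 15 to 20 in Sox5 KO, 11 to 19 for Xap5 KO against Nono KO, 17 to 23 for Xap5 KO against Sox5 KO and 23 to 25 for Nono KO against Sox5 KO. The lowest Nono KO counts came without WT replicate 1 (8) or WT replicate 2 (7). Without Xap5 KO replicate 3, 8 were higher and 11 lower for Xap5 KO against Nono KO, against 11 and 4 with all libraries. Over the set, values against WT that passed in the fit with all libraries and TMM factors or in the alternative turned sign only with offsets. With chromosome offsets these were Hnrnpa0 (-0.30), Hnrnpa2b1 (0.06), Hnrnpf (0.10), Hnrnph2 (-0.0015), Hnrnph3 (0.0052) and Hnrnpk (-0.12) in Xap5 KO, Hnrnpl (0.0090) in Nono KO, and Hnrnpf (0.30), Hnrnpul2 (-0.17), Srsf4 (0.0143), Srsf11 (0.20) and Tra2a (0.066) in Sox5 KO. With length and GC offsets they were Hnrnpd (0.41), Hnrnpu (0.41) and Srsf9 (-0.0905) in Sox5 KO, and with the replicate block added 0.43, 0.42 and -0.0797. Of 26 named values that passed, 9 passed with the same sign in all 21 settings without a stricter threshold: Hnrnpab in Xap5 KO, Hnrnph2, Hnrnpk, Hnrnpll and Srsf10 in Sox5 KO, and Srsf4, Srsf11, Tra2a and Tra2b in Nono KO. The causes of the other changes were not tested. With the replicate block 19 passed in Sox5 KO, 12 in Xap5 KO and 11 in Nono KO, and 16, 20 and 25 between knockouts; same-numbered libraries did not deviate together (median r 0.0082 over 15 pairs), so the numbers were not taken as a pairing. Depth limited no tested gene of the set; Srsf12 had no counts.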
